A study of Mus musculus with 4 samples.

Results

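Wdr41, F2r, Man2a1, Oat, Rbm19, Atrn, Fermt2 and Map2k1 are 8 mouse genes with many listed binding sites of the splicing factor SRSF2 and few of SRSF1. They were chosen by the SRSF1 share of their listed peaks, which is among the lowest of the 528 genes that had a symbol and at least 10 peaks. In all, 2155 genes had a symbol and a peak. The members hold 18 SRSF1 and 97 SRSF2 peaks, and all 8 had peaks of both proteins.

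The peaks come from CLIP-seq, in which ultraviolet light links a protein to the RNA it touches and the precipitated RNA fragments are sequenced. The cells were mouse embryonic fibroblasts (MEFs) from lines in which an SR protein is under tetracycline repression, kept without tetracycline, and an antibody against the HA tag was used for precipitation. There was 1 library of SRSF1 from the SRSF1 line and 1 library of SRSF2 from the SRSF2 line, so protein and cell line cannot be told apart and no value has a replicate. The study's 2 further SRSF1 libraries, from cells with siRNA treatment (control or SRSF2-directed), were not analysed here.

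SR proteins carry RNA recognition motifs and a tail rich in arginine and serine. They bind RNA mostly at exons, help the spliceosome choose splice sites, and travel with some messenger RNAs after splicing. SRSF1 and SRSF2 often bind the same transcripts, and either may aid or hinder the other at an exon. The genes described here have no common function. F2r is a thrombin receptor of the cell surface, Atrn (attractin) a membrane protein of the melanocortin pathway, Fermt2 (kindlin-2) an activator of integrins and Map2k1 (MEK1) the kinase that activates ERK. Man2a1 is a mannosidase that trims N-glycans in the Golgi, Oat the mitochondrial ornithine aminotransferase, Wdr41 a partner of C9orf72 and SMCR8 at lysosomes, and Rbm19 a nucleolar RNA-binding protein of ribosome biogenesis.

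Facts of the lists as a whole are few. They held 50983 SRSF1 and 56336 SRSF2 peaks, so that SRSF1 had 47.5% of all peaks. The median peak was 19 nt wide with a score of 8 in both lists. The score is the authors' own whole number, of unstated definition. It was read within a list, except where scores of both lists are set side by side below, which assumes that they mean the same. Read depth is unknown. Of 18 fibroblast markers, 5 had a named peak, among 115 SRSF1 and 90 SRSF2 peaks together. Of 7 epithelial markers 1 had a peak, and none of 17 endothelial, macrophage, neuronal or muscle markers had one. Most peaks lie in units without a gene name, so a marker without a named peak may still have been bound.

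The SRSF1 share ran from 12.5% in Wdr41 to 18.8% in Atrn. Since this share chose the genes, it is a description with no test. Wdr41 had 2 SRSF1 and 14 SRSF2 peaks, F2r 2 and 12, and Man2a1 3 and 17. Oat and Rbm19 had 2 and 11 each, Atrn 3 and 13, Fermt2 2 and 10, and Map2k1 2 and 9. No member had more than 3 SRSF1 peaks. The exact 95% interval of a share, which covers counting error only, lay below 47.5% for 6 of the 8 genes. It did so for 14 of the 528 genes (2.65%). These 14 include the 6 members, which were chosen for low shares, so the difference was set by the choice. The exceptions were Fermt2 (16.7%, 2.09 to 48.4) and Map2k1 (18.2%, 2.28 to 51.8). With the share of the gene's own chromosome as the reference, the same 6 of 8 lay below, and 13 of the 528 (2.46%) with these 6 included.

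**Figure D1:**
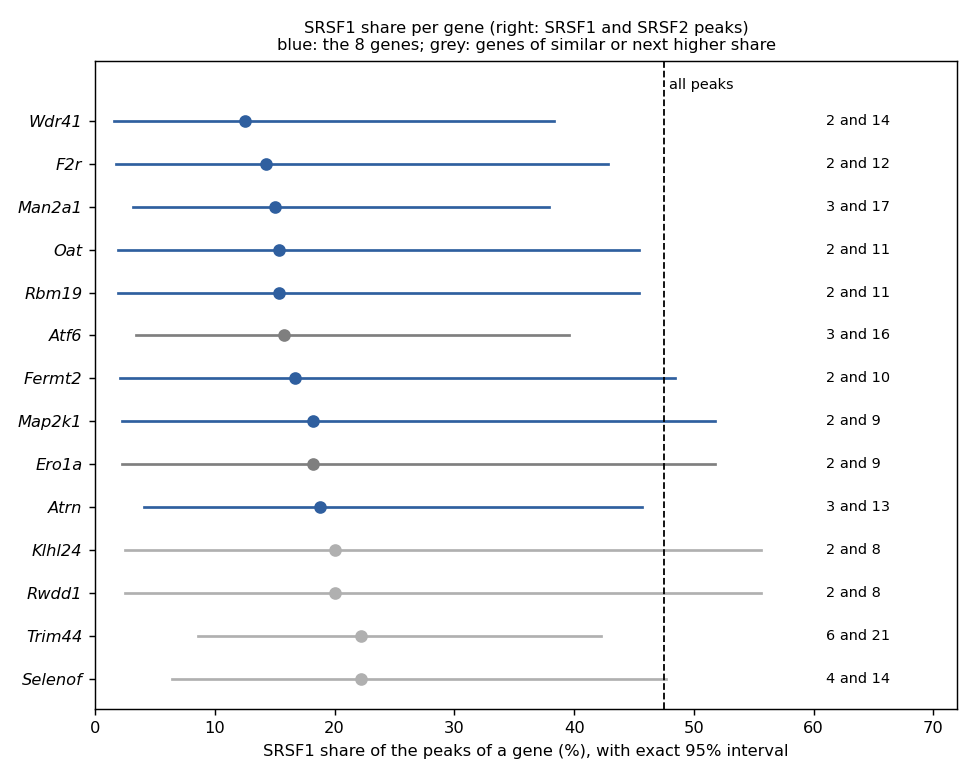
SRSF1 share of the peaks of each gene (x axis, percent) with its exact 95% interval, for the 8 genes (blue), Atf6 and Ero1a (dark grey) and the 4 genes next above (light grey). The dashed line is the share over all peaks, 47.5%, and the numbers at the right are SRSF1 and SRSF2 peaks. The intervals are wide, and those of Fermt2 and Map2k1 cross the line.

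The edge of the group was not a break. Atf6, which encodes a membrane-bound sensor of unfolded proteins (3 SRSF1 and 16 SRSF2 peaks, 15.8%), and Ero1a, an oxidase of the endoplasmic reticulum (2 and 9, 18.2%), lie among the members' shares but do not belong to the group. Next above Atrn at 18.8% came Klhl24 and Rwdd1 at 20% (2 and 8 peaks each), then Trim44 (6 and 21) and Selenof (4 and 14) at 22.2%.

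The receptor gene F2r differed from the other 7 in how its SRSF2 peaks lay. Its peaks spanned 96372540 to 96388328 on the minus strand of chromosome 13 (mm9). Of the 12 SRSF2 peaks, 9 (75%) fell in a stretch of 1013 nt, 96373665 to 96374677, where stretches join peaks less than 1000 nt apart. A further 2 lay at the 5′ end, 96388255 to 96388328, and 1 lay downstream of the dense stretch. From 5′ to 3′ the scores were 13 and 14 at the 5′ end, then 9, 11, 9, 10, 10, 13, 9, 12 and 15 in the dense stretch, and 9 at the last peak. Every SRSF2 peak of F2r was thus at or above the list median of 8. The spliced F2r transcript has 2 exons and 3336 nt in GENCODE release M21 (GRCm38). No peak was assigned to an exon, because that annotation is of another build. Among 263 genes with at least 10 SRSF2 peaks, the share in the fullest stretch was at percentile 95.8, with a median of 33.3% over these genes.

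The other surface protein gene, Atrn, had the opposite layout. Its 13 SRSF2 peaks spread over 92.4 kb of chromosome 2 (plus strand, 130759147 to 130851585) in 10 stretches, of which 7 held a single peak. The median gap between neighbouring peaks was 5403 nt, at percentile 95.4, where the median over the 263 genes was 620 nt. Scores were low and even, from 5 to 8 with a median of 6. No stretch of Atrn held more than 2 SRSF2 peaks.

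The integrin activator gene Fermt2 had 10 SRSF2 peaks in 6 stretches over 69.6 kb of chromosome 14 (minus strand, 46079626 to 46149264). From 5′ to 3′ the scores were 5, then 9 and 9 in a pair of peaks 25 kb further on, then 7, 6, 6, 5, 5, 5 and 5. The pair at 46124190 to 46124393 thus stood above the rest of the gene. Map2k1 had 9 SRSF2 peaks in 6 stretches over 66.9 kb of chromosome 9 (minus strand, 64034455 to 64101332). Its 5′-most peak scored 8 and was followed by 39.1 kb without a listed SRSF2 peak. The highest score of Map2k1, 9, lay in a group of 3 peaks at 64039107 to 64039330.

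Of the enzyme genes, Man2a1 had the widest layout and Oat the most compact. The 17 SRSF2 peaks of Man2a1 covered 153 kb of chromosome 17 (plus strand, 64951085 to 65104109) in 12 stretches, and 8 of these held 1 peak. All but 1 of them scored 4 to 6, and the exception scored 9 at 65018854 to 65018879. The 11 SRSF2 peaks of Oat lay within 12.0 kb of chromosome 7 (minus strand, 139749778 to 139761752) in 5 stretches, with scores of 5 to 7. The fullest of these, 139758492 to 139758963, held 4 peaks.

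The SRSF2 peaks of Wdr41 fell into 3 peaks at the 5′ end and 11 after a gap of 17.2 kb, 54.0% of the span. They lay at 95748444 to 95780322 on the plus strand of chromosome 13, in 8 stretches over 31.9 kb. From 5′ to 3′ the scores were 10, 19, 9, 16, 6, 9, 6, 6, 8, 7, 9, 6, 6 and 6. The peak of score 19, at 95748472 to 95748505, was the highest of all 8 genes, and 94.6% of the SRSF2 list scored no higher. The next highest, 16, lay at 95767021 to 95767047, the first peak after the gap. Rbm19 had 9 of its 11 SRSF2 peaks within its first 17.3 kb on chromosome 5 (plus strand, first peak of either protein at 120566571), and the other 2 after a gap of 64.0 kb. Scores in Rbm19 ran from 4 to 7, all below the list median.

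**Figure D2:**
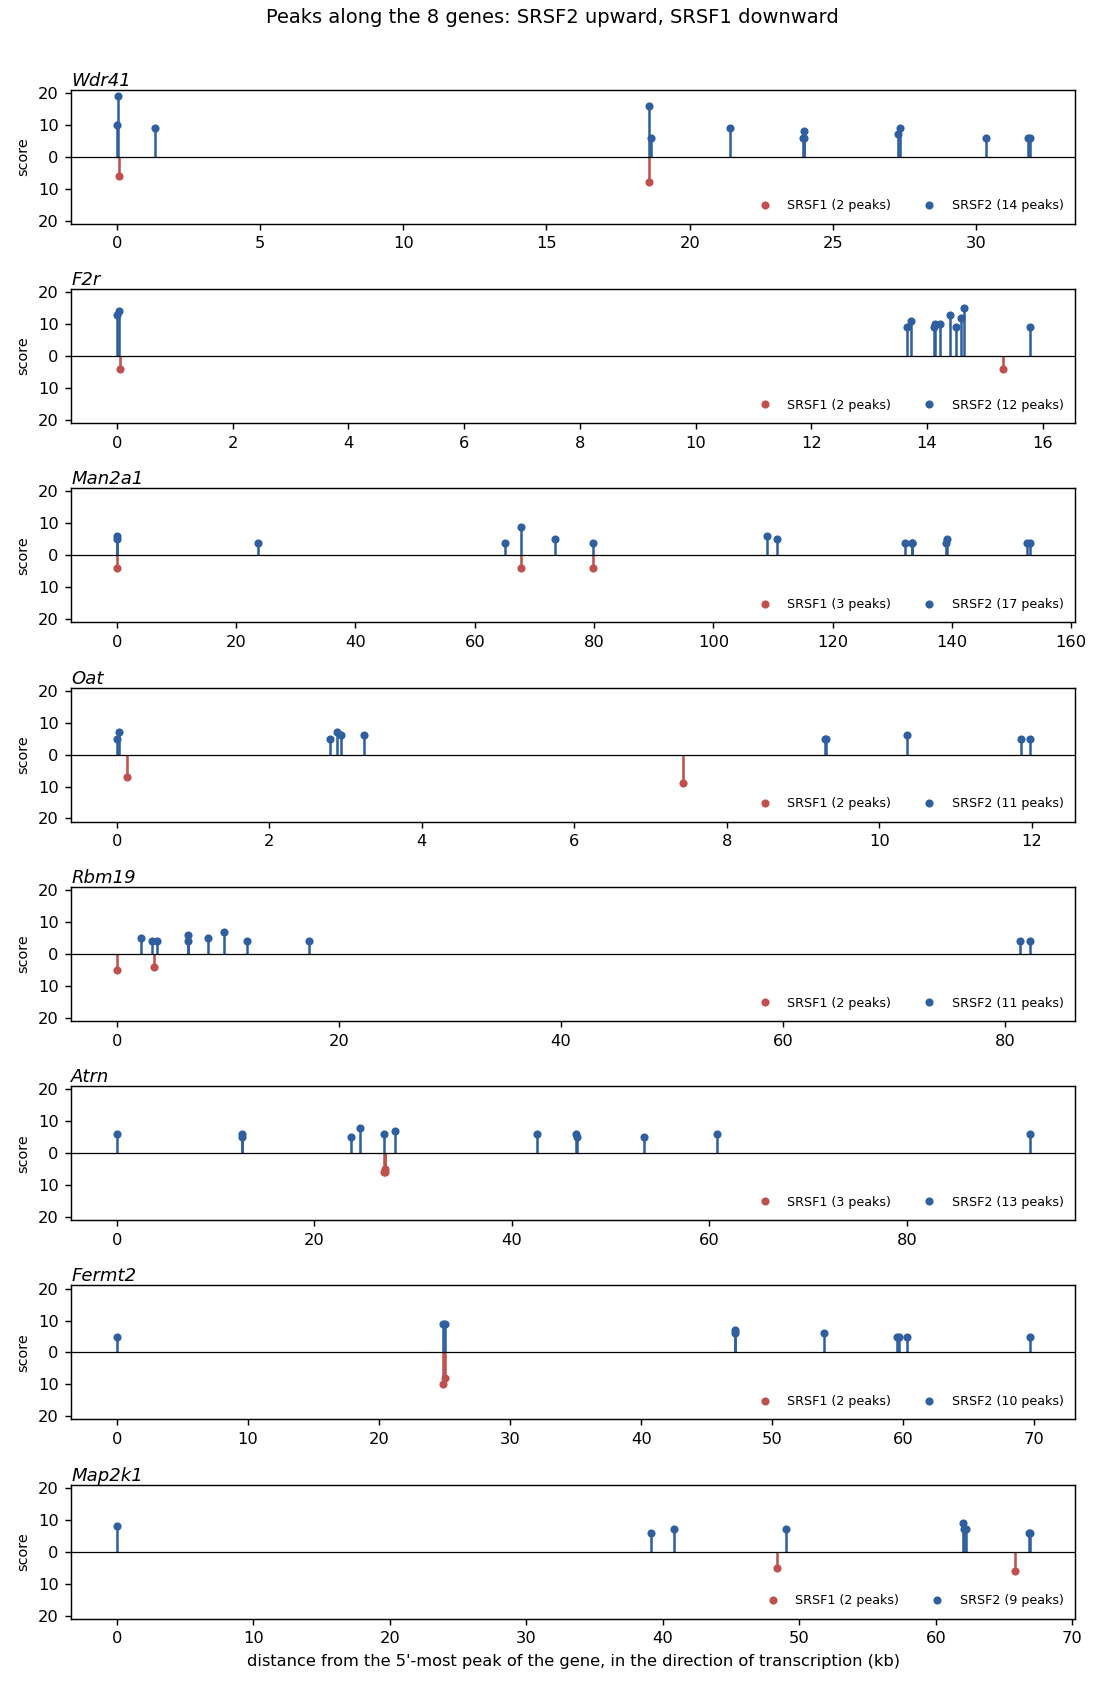
Each panel is 1 gene, with peaks placed by distance from the 5′-most peak of the gene (x axis, kb) and drawn to the height of the deposited score. SRSF2 peaks point up in blue and SRSF1 peaks point down in red. F2r has 9 of 12 SRSF2 peaks in 1 dense stretch, while the SRSF2 peaks of Rbm19 and Wdr41 are parted by gaps of 64.0 and 17.2 kb. Each panel has 2 or 3 SRSF1 peaks.

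Over the 8 genes the SRSF2 peaks formed 57 stretches, of which 31 held a single peak. Of these stretches, 13 had an SRSF1 peak within 1000 nt, and 68 of the 97 SRSF2 peaks (70.1%) were in the other 44. The number of SRSF1 peaks limits that count, and it was set by the choice of genes. The same count was not made for other genes, so whether 70.1% is unusual is unknown.

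The few SRSF1 peaks lay in 1 place in 2 genes and in separate places in the other 6. In Rbm19, 1 of these 6, the places were both near the 5′ end. In Atrn all 3 listed SRSF1 peaks fell within 84 nt, 27 kb into a span of 92.4 kb. Their scores were 6, 5 and 6, and the first of them overlapped an SRSF2 peak of score 6, a score that 7 SRSF2 peaks of Atrn share. In Fermt2 both SRSF1 peaks fell within 204 nt, with scores of 10 and 8 from 5′ to 3′, and lay on the pair of SRSF2 peaks of score 9. Their midpoints were 1.5 and 4 nt from those of the SRSF2 peaks. The score of 10 was the highest SRSF1 score in the 8 genes, and 9 was the highest SRSF2 score of Fermt2.

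Wdr41, F2r and Man2a1 had SRSF1 peaks at the 5′ end and again further on, as did Oat, described below. In Wdr41, an SRSF1 peak of score 6 lay 27 nt from the midpoint of the SRSF2 peak of score 19, and an SRSF1 peak of score 8 lay 1 nt from that of score 16. The SRSF1 peaks of Wdr41 thus lay beside the strongest SRSF2 peak and on the next strongest. In F2r, an SRSF1 peak of score 4 overlapped the SRSF2 peak of score 14 at the 5′ end. The other, also of score 4, lay 457 nt from the nearest SRSF2 midpoint, downstream of the dense stretch, and no SRSF1 peak was listed within that stretch. In Man2a1, 2 of the 3 SRSF1 peaks overlapped SRSF2 peaks, of scores 5 and 9, and the remaining 1 lay 35.5 nt from one of score 4.

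In Oat, Rbm19 and Map2k1 no SRSF1 peak overlapped an SRSF2 peak. Oat had SRSF1 peaks of scores 7 and 9 at 113 and 1852 nt from the nearest SRSF2 midpoint, and the latter lay inside the longest gap between SRSF2 peaks of that gene. Both Oat scores matched or exceeded the highest SRSF2 score of the gene, 7, though the lists may not share a scale. Rbm19 had an SRSF1 peak 5′ of every SRSF2 peak, at 2213 nt from the nearest, and another at 197 nt. Both lay within the first 3.36 kb of a gene whose peaks span 82.2 kb. Map2k1 had SRSF1 peaks at 721 and 1028 nt from the nearest SRSF2 midpoint.

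Together, 7 of 18 SRSF1 peaks overlapped an SRSF2 peak of the same gene by at least 1 nt (38.9%, 17.3 to 64.3). Over all genes with at least 10 peaks the share was 44.7%, inside this interval. In the other direction, 7 of 97 SRSF2 peaks lay on an SRSF1 peak (7.22%, 2.95 to 14.3), against 39.5% over those genes. The choice of genes limits this count, since it left 18 SRSF1 peaks for 97 SRSF2 peaks to meet. A share near 39.5% was thus hardly within reach, and the difference is no finding about these genes. The 7 overlapped SRSF2 peaks had a median score of 9, and the other 90 a median of 6. Of the 7, 3 held the highest score of their gene, ties included, and 5 one of the top 2 ranks. Scores differ between the genes, and the 7 include the peaks of score 16 in Wdr41 and 14 in F2r. These ranks were not set beside those of other genes, and peak width was not taken into account.

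Apart from F2r, the SRSF2 peaks of these genes had median scores below that of the list, from 4 in Man2a1 and Rbm19 to 7.5 in Wdr41. All 97 had a median of 6 and only 25 (25.8%) reached the list median of 8, where 60.5% of all SRSF2 peaks did. F2r supplied 12 of the 25 and Wdr41 7, which is 50% of the SRSF2 peaks of Wdr41. The highest SRSF2 score of the other 6 genes was 7 to 9, at percentiles 2.66 to 9.51 of the 263 genes, whose median highest score was 16. The number of peaks per gene was not matched, and Map2k1, with 9 SRSF2 peaks, is not one of the 263. Peak widths had a median of 17 nt (6 to 38) for SRSF2 and 19 nt (7 to 30) for SRSF1.

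The lowest listed score differed between genes and lists, which bears on the counts of Oat and Fermt2. In Oat the lowest score was 7 for SRSF1 and 5 for SRSF2, and in Fermt2 8 and 5. With only the peaks at or above the higher of both, Oat had 2 SRSF1 and 2 SRSF2 peaks (50%, 6.76 to 93.2), and so had Fermt2. In F2r the difference ran the other way, 4 against 9, and a limit of 9 left 0 SRSF1 and 12 SRSF2 peaks (0%, 0 to 26.5). Map2k1, at 5 and 6, kept 1 and 9. In Wdr41, Man2a1, Rbm19 and Atrn the lowest scores were equal and the counts stayed as listed. Over the 528 genes the SRSF1 list had the lower minimum in 342, the same in 164 and the higher in 22, so Oat and Fermt2 are among these 22. With such a limit in each gene, the 528 genes together had an SRSF1 share of 40.3%, against 46.6% as listed. The 8 members together had 15 SRSF1 and 80 SRSF2 peaks (15.8%, 9.12 to 24.7). A common limit assumes that scores of both lists mean the same, which the sources used here do not say.

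**Figure D3:**
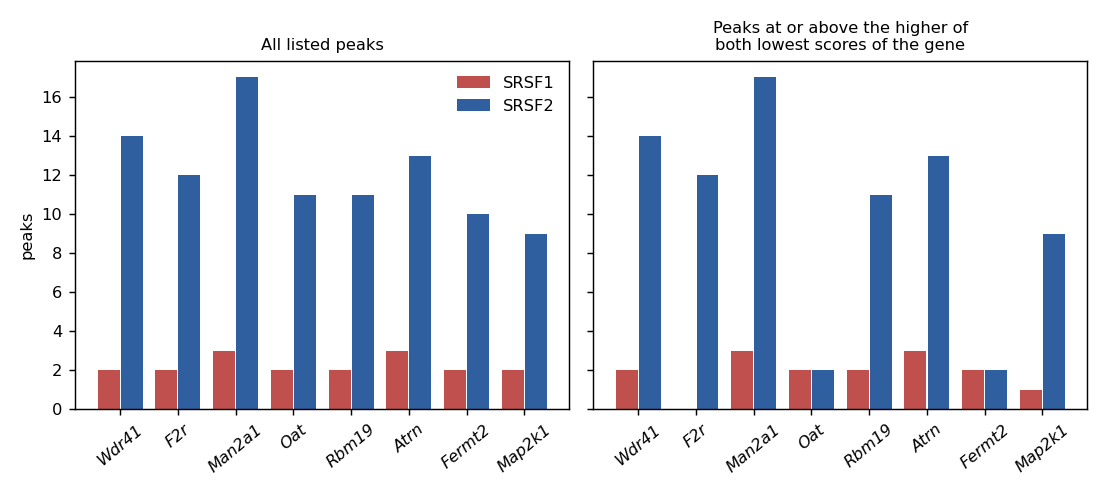
Peaks per gene (y axis) of SRSF1 (red) and SRSF2 (blue), as listed (left) and with only peaks at or above the higher of the gene's lowest scores in either list (right). Oat and Fermt2 fall to 2 peaks of each protein, F2r loses both SRSF1 peaks, and Wdr41, Man2a1, Rbm19 and Atrn do not change.

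The authors' peak numbers showed few SRSF1 peaks that had been numbered but not listed. Numbers within a gene skip where a numbered peak is not listed. The highest SRSF1 numbers of the 8 genes added up to 20, of which 18 were listed, with 1 number missing in Atrn and 1 in Map2k1. In Atrn it is number 1, and numbers follow position, so that peak would lie 5′ of the 84 nt that hold the listed ones. In Map2k1 it is number 2, between the listed peaks. The highest SRSF2 numbers added up to 108, with 97 listed. Counted by highest number, the SRSF1 share was 15.6%, against 15.7% for listed peaks. Peaks numbered after the last listed one cannot be seen in this way.

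The surroundings of F2r were poor in SRSF1 peaks as well, and so were those of Wdr41, largely through peaks that both share. Within 500 kb of F2r, other host units had 4 SRSF1 and 27 SRSF2 peaks (12.9%, 3.63 to 29.8), the lowest share among the 450 genes with at least 20 such peaks. Within 500 kb of Wdr41 they had 9 and 30 (23.1%, 11.1 to 39.3). The genes lie 592 kb apart, and 28 peaks, 4 of SRSF1 and 24 of SRSF2, belong to both surroundings. The low share around Wdr41 thus rests largely on peaks also counted around F2r, and the shares are not independent. The 1 Mb window that holds Wdr41, 95 to 96 Mb, had 22 SRSF1 and 31 SRSF2 peaks without the members (41.5%, 28.1 to 55.9). With each peak counted once, both surroundings together had 9 and 33 peaks (21.4%, 10.3 to 36.8). The median over the 450 genes was 47.7%, with 90% of genes between 35.6% and 59.0%. Imbalance here was seen on both strands, but from few peaks. On the strand opposite to F2r there were 0 SRSF1 and 7 SRSF2 peaks. The strand opposite to Wdr41 had 4 and 20, but it is the strand of F2r. A host unit at 96121216 to 96144906, within both surroundings, held 4 and 18 of these. These surroundings were examined after the data had been seen.

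Around the other 6 genes the share was nearer to that of all peaks. Shares within 500 kb were 41.4% for Man2a1 (23.5 to 61.1), 48.1% for Oat (28.7 to 68.1), 40.7% for Rbm19 (22.4 to 61.2), 53.6% for Atrn (45.0 to 62.0), 39.6% for Fermt2 (26.5 to 54.0) and 39.6% for Map2k1 (30.5 to 49.4). Each of these intervals includes 47.5%. Among the genes whose surroundings were ranked above, Fermt2 was at percentile 11.8, Map2k1 at 12, Rbm19 at 14.4 and Man2a1 at 17.6. Oat was at 53.3 and Atrn at 84.2. The surroundings of Fermt2, Map2k1, Rbm19 and Man2a1 thus ranked low, though above those of Wdr41 and F2r. The surroundings of all 6 genes together had 176 SRSF1 and 211 SRSF2 peaks (45.5%, 40.4 to 50.6). Atrn, at 53.6%, supplied 75 and 65 of these, so the pooled share leans on this gene. Oat stood at 48.1%, and Man2a1, Rbm19, Fermt2 and Map2k1 lay between 39.6% and 41.4%. For Atrn the intervals of the surroundings and of its own peaks (18.8%, 4.05 to 45.6) met only at their ends, while those of the other 5 genes overlapped more widely. Ero1a lies 153 kb from Fermt2, and without its peaks the surroundings of Fermt2 stood at 45.2% (29.8 to 61.3). No other host unit had a peak of either strand within the span of any of the 8 genes.

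**Figure D4:**
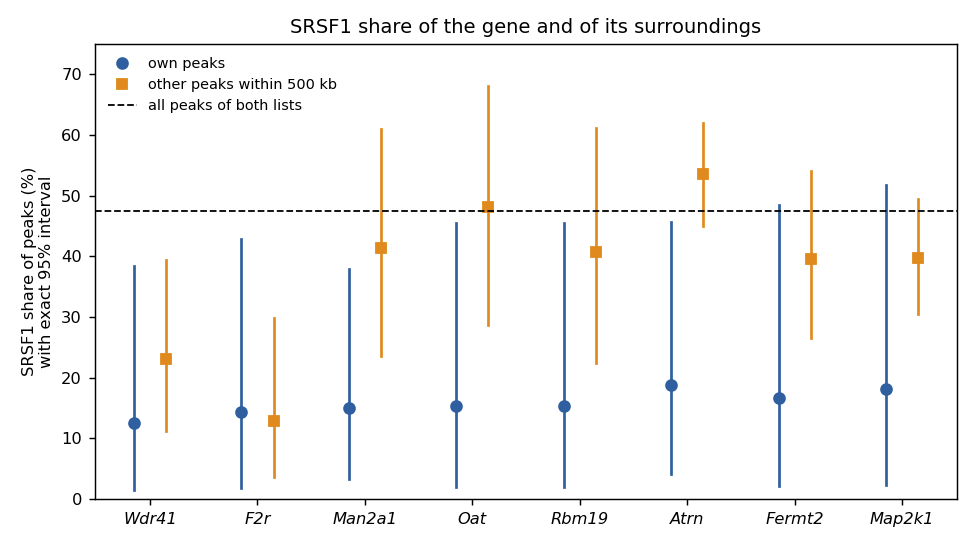
SRSF1 share (y axis, percent) of the gene's own peaks (blue circles) and of all other peaks within 500 kb on both strands (orange squares), with exact 95% intervals. The dashed line is the share over all peaks, 47.5%. Only around Wdr41 (23.1%) and F2r (12.9%) does the interval of the surroundings lie below the line. These surroundings share 28 peaks, 4 of SRSF1 and 24 of SRSF2, on which the low value around Wdr41 largely rests.

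The low share reached beyond these surroundings. In windows of 1 Mb on chromosome 13, leaving out the members, SRSF1 had 5 of 26 peaks at 94 to 95 Mb (19.2%), 22 of 53 at 95 to 96 Mb (41.5%), 4 of 31 at 96 to 97 Mb (12.9%) and 38 of 155 at 97 to 98 Mb (24.5%). The bordering windows had 47.1% at 93 to 94 Mb and, from only 4 peaks of each protein, 50% at 98 to 99 Mb, and the window at 99 to 100 Mb had 48.0%. From 94 to 98 Mb, without the members, there were 69 SRSF1 and 196 SRSF2 peaks (26.0%, 20.9 to 31.8), against 45.3% on the rest of the chromosome. The share was 27.1% on the plus strand and 24.8% on the minus strand. Of 24 host units in this region 22 had more SRSF2 than SRSF1 peaks, 2 had equal numbers and 0 had more SRSF1 peaks, but 6 of the 24 held a single peak. Of those with at least 3 peaks, 16 of 17 had more SRSF2 peaks, against 49.9% of all 7086 such host units. Among them Arsb, a lysosomal sulfatase gene, had 1 and 8 peaks, and Tbca, a tubulin folding cofactor gene, 2 and 2. With scores at or above the list median the region had 19 and 118 peaks (13.9%, 8.56 to 20.8), where all such peaks gave 43.6%. Of the 1298 windows with at least 20 peaks, 9 had a share under 25%, and 3 of the 9 were in this region. The bounds of the region were chosen after seeing these values.

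**Figure D5:**
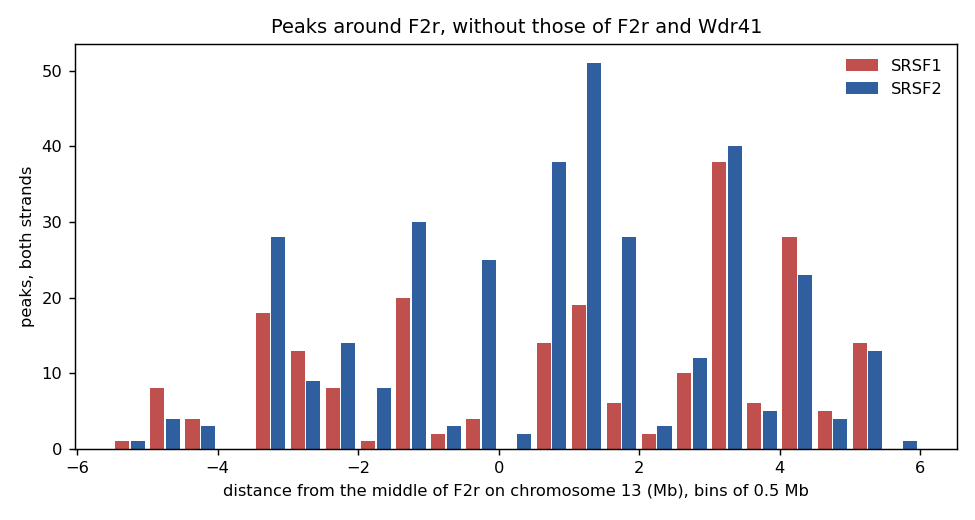
Number of SRSF1 (red) and SRSF2 (blue) peaks on both strands in bins of 0.5 Mb (y axis) by distance from the middle of F2r along chromosome 13 (x axis, Mb), without the peaks of F2r and Wdr41. SRSF2 exceeds SRSF1 in every bin from -2.5 to 3.5 Mb, by at most 2 peaks per bin from 2 to 3.5 Mb.

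Each protein was measured in its own line, so whether this region follows the protein or the line cannot be told apart. Without Wdr41 and F2r, the other 6 genes had 14 SRSF1 and 71 SRSF2 peaks, a share of 16.5%. Each of these genes was chosen for its low share, so a low pooled value was fixed in advance.

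Genes that act with the members were seldom named in the lists, and those that were had no low share when pooled. Of 8 lists with 139 genes, 23 genes had a named peak, and together 94 SRSF1 and 107 SRSF2 peaks (46.8%). Only 15.9% of all peaks lie in named genes, so a gene without a named peak may still have been bound. The share of all annotated genes with a named peak was not counted. The MAP kinase cascade list around Map2k1, 21 genes, and the attractin and melanocortin list, 7 genes, had no named gene with a peak. Beside F2r, 2 of 18 genes of protease-activated receptors and G proteins had peaks, the G protein genes Gna12 (5 SRSF1 and 4 SRSF2) and Gnai3 (2 and 5). Beside Fermt2, of 19 integrin adhesion genes only Src, a tyrosine kinase gene, had any (4 and 3).

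Beside Man2a1, 3 of 18 genes of N-glycan processing had peaks, the galactosyltransferase gene B4galt1 (9 and 8), Man2b1 (1 and 3) and Mgat3 (1 and 0). Beside Oat, 6 of 17 genes of ornithine, proline and arginine metabolism had 20 SRSF1 and 21 SRSF2 peaks (48.8%, 32.9 to 64.9). Azin1, an antizyme inhibitor gene, had 14 and 8, while Asl, argininosuccinate lyase, had 1 and 5 (16.7%), Sat1 2 and 4, and Sms 3 and 2. Beside Rbm19, 7 of 22 ribosome biogenesis genes had 19 and 21 peaks (47.5%, 31.5 to 63.9), with Nol10 at 10 and 7, Wdr75 at 4 and 6, Bop1 at 2 and 4 and Pes1 at 2 of each. Beside Wdr41, 4 of 17 genes of the C9orf72 complex and the start of autophagy had 33 and 42 peaks (44.0%, 32.5 to 55.9), with Lamp1 at 14 and 22, Becn1 at 8 and 10, Pik3c3 at 8 and 6 and Atg13 at 3 and 4. No gene of these lists had an interval below 47.5%, as against 2.65% of genes with at least 10 peaks, and only 7 of them had that many peaks. The median share over all 2155 named genes was 50%.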

How the data were processed

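CLIP-seq peaks of 1 SRSF1 and 1 SRSF2 library were analysed. The deposited lists give chromosome, start, end, name, a score of at least 4 and strand. Per the submitters' processing notes the build is mm9; positions are printed 1-based. For the aligner, the peak caller, its threshold, the meaning of the score and the read depth, nothing was given in the sources used here.

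RefSeq accessions in the peak names were matched to symbols with a table of GRCm38.p6, used for names only (2155 of 2169). Exon numbers and spliced lengths come from GENCODE release M21. Sequences, exons and introns under the peaks were not analysed here, because no genome of the mm9 build was used.

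Shares have exact (Clopper-Pearson) 95% intervals for counting error only, although neighbouring peaks are not independent. Overlap needs 1 nt on the same strand, distances are between midpoints, and stretches join peaks less than 1000 nt apart. The upper part of each list held scores at or above its median, which with ties was 51.6% of SRSF1 and 60.5% of SRSF2 peaks. Interval calls were tested on simulated data, and overlaps were checked against bedtools 2.31.1. Python 3.11.15, pandas 2.3.3 and scipy 1.17.1 were used.

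With 1 library per protein no test between proteins was made. The genes, lists and settings were chosen with earlier results of these data known. The text names all 8 members, Atf6, Ero1a, the next 4 genes by share and up to 4 genes with most peaks per list. Arsb and Tbca were named after their values were seen.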

Additional observations from a re-analysis of the deposited data

How the results depend on the processing

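The pooled SRSF1 share of the 8 genes stayed within its interval (9.55 to 23.6%) under all 7 alternatives, from 13.8% (peaks at or above the list median score) to 16.7% (peaks within 20 nt merged). Since this share chose the genes and the alternatives reuse the same peaks, a low value was largely fixed in advance. Counting all host units on the strand added no peak (18 of 115 again). Single genes were less steady. With scores at or above the list median Oat kept 1 SRSF1 and 0 SRSF2 peaks, Fermt2 2 of each, and Rbm19 none, so no share could be given for Rbm19. The 57 stretches of SRSF2 peaks became 35 when joined under 5000 nt and 14 with scores at or above the list median, since both settings leave fewer stretches or peaks to count. SRSF1 peaks meeting an SRSF2 peak numbered 7 to 9. The 14 genes with an interval below the overall share became 8 with at least 20 peaks per gene and 9 with the higher scores, settings under which fewer genes can be called. The common lowest score, the highest peak numbers and the set without chromosome 13 were added after seeing the data. No paired analysis was possible because each protein has 1 library. With 11 to 20 peaks per gene the intervals are wide, and a moderate imbalance could not be detected at this number of peaks.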

Other observations

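Atf6 and Ero1a have shares like those of the 8 genes but higher top SRSF2 scores than 6 of them. Of 3 SRSF1 peaks of Atf6, 2 overlapped an SRSF2 peak, and of 2 in Ero1a, 1 did. SRSF2 scores in Atf6 ran from 5 to 12 and in Ero1a from 5 to 18, each with a median of 6. With peaks at or above the higher of both lowest scores, Atf6 had 2 SRSF1 and 16 SRSF2 peaks (11.1%, 1.38 to 34.7), and Ero1a 2 and 6 (25%, 3.19 to 65.1).

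In the 94 to 98 Mb region of chromosome 13 without the members, 12 genic host units had peaks of both proteins. The lowest SRSF1 score was below the lowest SRSF2 score in 5 of them, equal in 6 and above in 1. Over all 6303 genic units with both proteins it was below in 58.6%. In F2r, inside the region, the lowest scores were 4 and 9, and in Wdr41 both were 6.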
